A study of Homo sapiens with 27 samples.

Results

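Knockdown of PAPD5 in USB1 mutant human embryonic stem cells (hESCs) was read out by small RNA sequencing of 3 USB1 mutant shPAPD5 libraries and 3 USB1 mutant libraries, out of 27 libraries in the series. The miRNAs described are all mature miRNAs listed in both of these tables of deposited counts, 1426 of the 2276 listed anywhere in the series. The 15 hESC libraries of the series were from H1, an established line. The other libraries were from K562 cells and were not compared here. The USB1 mutant was made with CRISPR/Cas9 and picked as a clone from cells seeded at low density. Every hESC group other than WT carries that mutation. The knockdown cells also carry a constitutive short hairpin RNA against PAPD5, placed in a miR-30 cassette and inserted at the AAVS1 locus with a zinc finger nuclease. A second USB1 mutant line, iUSB1, carries a doxycycline-inducible USB1 at the same locus, and its uninduced libraries (-Dox, n = 3) and induced libraries (+Dox, n = 3) are given where they bear on a value, as are the WT hESC libraries (n = 3). A group with a hairpin that targets nothing was not analysed here, so the insertion and the loss of PAPD5 cannot be told apart in the main comparison.

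USB1 is an exonuclease that trims the 3' ends of small RNAs, and its mutation causes poikiloderma with neutropenia, a bone marrow failure disorder. PAPD5, encoded by TENT4B, is a non-canonical poly(A) polymerase that adds short adenosine tails to RNA 3' ends and so can mark them for decay. On miRNAs these activities oppose each other, one removing and the other adding the tail, and the comparison asks which miRNA levels differ when PAPD5 is silenced in cells with mutated USB1.

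The sequences of the knockdown and of the miRNAs the results turn on are given first. The study's methods describe 3 hairpins with designed 21-base targets in PAPD5 and do not say which of them the sequenced cells carry. All lie on the plus strand of TENT4B on chromosome 16 of GRCh38, at chr16:50224928-50224948, chr16:50224661-50224681 and chr16:50223201-50223221. Each matched an exon in 4 of 4 annotated TENT4B transcripts and the coding sequence in 3 of 4.
Hairpin target 1: gccacatatagagattggata
Hairpin target 2: cgatgttggaaggagttcata
Hairpin target 3: cccaatacaaactatggtgtt
The small RNA libraries do not measure PAPD5 or USB1 mRNA, so the depth of the knockdown was not analysed here.

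The next set is shown because most of its 3' arms share the target-recognition seed AAGUGCU or resemble it, and yet stood on opposite sides of the comparison. miR-371a-5p, with an unrelated seed, is included as the other arm of its hairpin. Mature sequences are from RefSeq (GRCh38.p14), with the seed, bases 2 to 8, in capitals. The miR-371 to miR-373 hairpins lie at chr19:53787675-53788773 and the miR-302 and miR-367 hairpins at chr4:112647874-112648557.
miR-372-3p: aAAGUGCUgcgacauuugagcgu
miR-373-3p: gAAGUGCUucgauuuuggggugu
miR-371a-3p: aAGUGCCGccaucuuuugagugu
miR-371b-3p: aAGUGCCCccacaguuugagugc
miR-371a-5p: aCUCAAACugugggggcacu
miR-302a-3p: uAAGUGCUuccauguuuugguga
miR-302b-3p: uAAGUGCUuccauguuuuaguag
miR-302c-3p: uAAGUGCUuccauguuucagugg
miR-302d-3p: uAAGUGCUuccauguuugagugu
miR-371a and miR-371b are read from opposite strands of the same hairpin locus. miR-371a-3p and miR-372-3p lie in an intron and miR-373-3p in an exon of an unnamed long non-coding RNA gene on the same strand. The miR-302 members lie in exons of MIR302CHG, antisense to an intron of LARP7.

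The hematopoietic miRNAs that the study followed are shown next, with 4 others that had small p-values here. miR-125a-5p and miR-125b-5p share a seed, as do miR-200b-3p and miR-429.
miR-125a-5p: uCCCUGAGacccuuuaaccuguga
miR-125b-5p: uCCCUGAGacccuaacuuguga
miR-142-5p: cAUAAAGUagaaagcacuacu
miR-199a-3p: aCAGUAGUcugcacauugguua
miR-223-3p: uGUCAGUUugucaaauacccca
miR-200b-3p: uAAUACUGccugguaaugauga
miR-429: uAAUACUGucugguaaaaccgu
miR-1301-3p: uUGCAGCUgccugggagugacuuc
miR-203a-3p: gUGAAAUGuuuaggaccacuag

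The 6 libraries held 12258450 to 35734485 miRNA counts each, of which the 10 most abundant miRNAs took 79.2 to 84.1%. USB1 mutant library 1 stood apart from its group. Its chi-squared per degree of freedom was 2205 against library 2 and 1992 against library 3, whereas libraries 2 and 3 gave 87.4 against each other and the knockdown pairs gave 167 to 470. WT library 1 also stood apart, in the miR-371 to miR-373 cluster and in other miRNAs on either side. In WT libraries 1, 2 and 3, miR-146a-5p had 6465, 1811 and 1707 counts and let-7a-5p 14757, 28796 and 32987. Some miRNAs were close in all of them, such as miR-25-3p with 122500, 121831 and 111030 counts. Comparisons with WT outside that cluster therefore also include this outlying library. Of the 1426 miRNAs, 1251 were listed in all 5 hESC tables and 998 passed the filter on low counts. Of the 428 not tested, the mean over the 6 libraries had a median of 3.33 and a maximum of 28.3 counts. Levels are CPM, counts divided by library size after TMM scaling, which corrects for composition. They are given per library or as mean ± SD of 3 libraries, and changes are log2 fold changes with their standard error (SE).

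No miRNA passed an adjusted p of 0.05 between knockdown and USB1 mutant libraries when all 15 hESC libraries were fitted together. edgeR called 0 of 998 in either direction, with a smallest adjusted p of 0.206. At an unadjusted p under 0.05, 43 miRNAs were higher (4.31%) and 73 lower (7.31%) with the knockdown. DESeq2 on the same libraries called 7 higher (0.707%) and 1 lower (0.101%) of 990. The 3 knockdown libraries lay wholly above the 3 mutant libraries for 85 miRNAs (8.52%) and wholly below them for 72 (7.21%). The median log2 change over all 998 was -0.03, with quartiles of -0.32 and 0.25, against a median SE of 0.34. Scaling by library totals alone shifted that median to 0.13, with 610 of the 998 changes above 0 in place of 474, so small changes are to be read against this shift. For the 427 miRNAs whose mean log2 CPM reached 3, the median SE was 0.22.

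**Figure D1:**
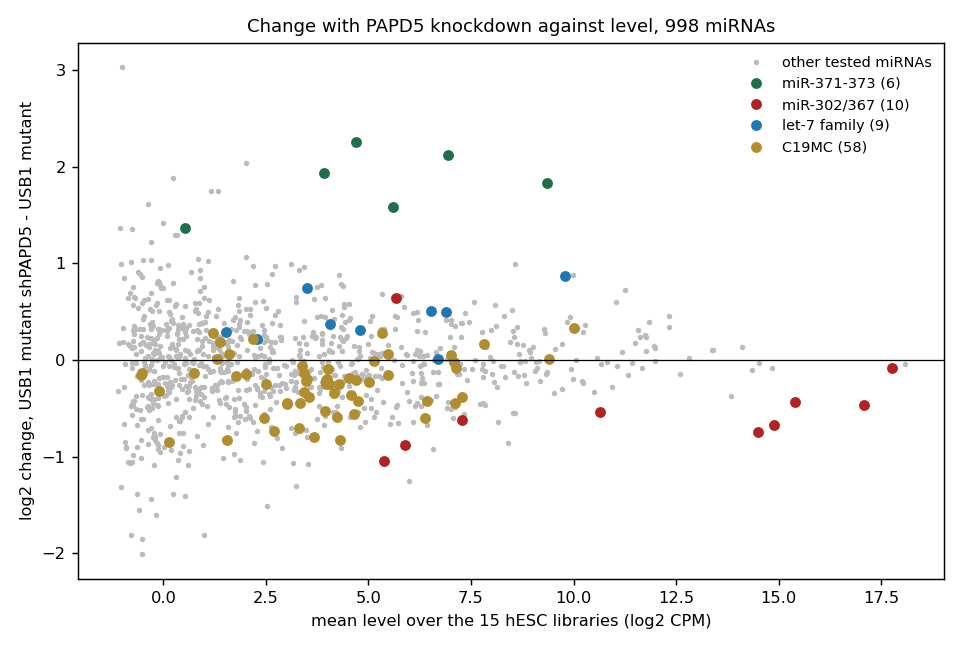
Log2 change in knockdown over USB1 mutant libraries (y axis) against mean log2 CPM (x axis) for the 998 tested miRNAs, 1 point each, with 4 groups marked. The 6 miR-371 to miR-373 arms lie between 1.36 and 2.25, the let-7 members at or above 0.01, and 9 of 10 miR-302 and miR-367 arms below 0.

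The largest differences as a group were in the miR-371 to miR-373 cluster, whose miRNAs are abundant in undifferentiated embryonic stem cells and favour cell-cycle progression. All 6 tested arms were higher in knockdown than in USB1 mutant libraries, by 1.36 to 2.25 on the log2 scale with a median of 1.88. Summed over the arms, the mutant libraries held 208, 173 and 159 CPM and the knockdown libraries 773, 510.2 and 658 CPM. In 5 of the 6 arms the libraries did not overlap, against 8.52% of all tested miRNAs wholly above the mutant.

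miR-372-3p, the most abundant arm, was at 183, 148 and 135 CPM in the mutant and at 687, 427 and 542 CPM in the knockdown libraries. The lowest knockdown library was above the highest mutant library, and the log2 change was 1.83 (SE 0.87, 95% interval -0.09 to 3.75, edgeR adjusted p = 0.469). miR-373-3p, which has the same seed, was at 4.85, 3.61 and 4.20 CPM against 23.5, 14.3 and 22.3 CPM. Its groups did not overlap either, with a log2 change of 2.25 (SE 0.98, edgeR adjusted p = 0.394). miR-371a-3p was at 11.6, 7.92 and 8.70 CPM against 25.4, 27.7 and 31.3 CPM, a log2 change of 1.58 (SE 0.95, edgeR adjusted p = 0.554). The other strand of that locus gave miR-371b-3p, at 6.95, 12.04 and 10.1 CPM against 33.5, 37.6 and 56.1 CPM, a log2 change of 2.12 with an edgeR adjusted p of 0.530. The 5' arm miR-371a-5p was at 0.721, 1.23 and 0.975 CPM against 2.98, 3.23 and 5.36 CPM, also without overlap. Only miR-371b-5p overlapped, at 0.0750 to 0.459 CPM against 0.407 to 0.846 CPM. A seventh arm, miR-372-5p, had 3 to 8 counts in mutant and 10 to 16 in knockdown libraries and was not tested.

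The call on this cluster turned on which libraries shared the estimate of spread. WT library 1 held 8714 CPM of the cluster against 484 CPM in each of the other WT libraries, and the SE of miR-371a-3p was 0.95 in the fit that included it. When WT library 1 was left out of the shared fit, that SE was 0.24 and 8 miRNAs rose, among them miR-373-3p, miR-372-3p and miR-371a-3p (edgeR adjusted p = 0.00191 each), miR-371b-3p (0.0168) and miR-371a-5p (0.0449). In a fit of the 6 libraries alone, 4 of 900 miRNAs were called (0.444%), all from this cluster and all higher. These were miR-373-3p (2.28, SE 0.29), miR-372-3p (1.86, SE 0.25) and miR-371b-3p (2.15, SE 0.28), each with an edgeR adjusted p of 0.00668, and miR-371a-3p (1.60, SE 0.24, adjusted p = 0.0144). In that fit 0 miRNAs were called without knockdown library 3, where the smallest adjusted p was 0.0640, and 8 without mutant library 1. DESeq2 gave 5 of the 6 arms no p-value in the 15-library fit and called the same 5 in the 6-library fit, with adjusted p from 3.13e-10 to 0.00145.

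In summed level of the cluster, the knockdown libraries lay above every hESC library other than WT library 1. The iUSB1 -Dox libraries held 211, 269.5 and 137 CPM of the cluster and the +Dox libraries 61.7, 39.6 and 79.8 CPM. Against -Dox all 6 arms were higher with the knockdown, by a median of 1.23. Of these 4 did not overlap, against 7.31% of all tested miRNAs wholly above -Dox. The locus is 1300.0 kb from PPP1R12C, the gene that holds AAVS1, and both the knockdown and the iUSB1 lines carry an insertion there.

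**Figure D2:**
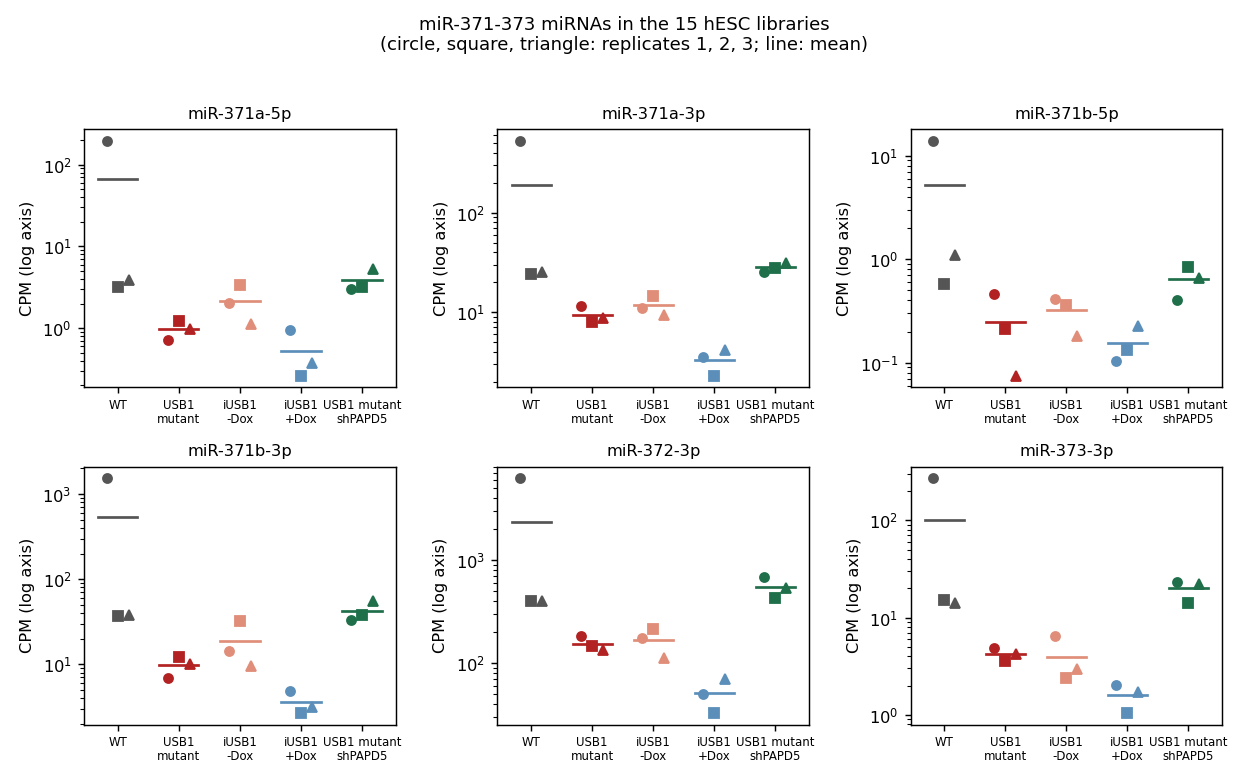
CPM on a log axis of the 6 tested miR-371 to miR-373 arms in each of the 15 hESC libraries, by group, 1 point per library. In 5 arms the 3 knockdown libraries lie above the 3 USB1 mutant libraries, and WT library 1 lies far above all others.

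The miR-302 and miR-367 cluster, the other hallmark of undifferentiated hESCs, lay on the opposite side. Of its 10 tested arms, 9 were lower with the knockdown and 1 higher, with a median log2 change of -0.58. Among the 9, 4 did not overlap between groups, against 7.21% of all tested miRNAs wholly below the mutant. Without mutant library 1 the median was -0.20.

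miR-302b-3p was at 184434, 149596 and 168181 CPM in mutant and 126052, 126336 and 109899 CPM in knockdown libraries. All knockdown libraries were below all mutant libraries, and the log2 change was -0.47 (SE 0.16, 95% interval -0.81 to -0.13, edgeR adjusted p = 0.309) with all libraries and -0.37 without mutant library 1. miR-302a-3p was at 55616, 23932 and 23460.5 CPM against 20422, 23793 and 17019 CPM. Here the difference lay in mutant library 1: the log2 change was -0.75 with it and -0.19 without it. miR-302c-3p showed the same, with log2 changes of -0.67 and -0.11. For miR-302d-3p only part of the difference lay in that library, with -0.43 and -0.21, and its groups did not overlap. miR-367-3p was at 145, 66.7 and 56.3 CPM against 54.4, 49.2 and 42.6 CPM, and its log2 change of -0.87 was -0.31 without mutant library 1. miR-302b-5p moved from -1.05 to -0.11 in the same way. The 5' arm miR-302a-5p, at 224771 ± 22631 CPM in mutant and 211404 ± 34102 CPM in knockdown libraries, had a log2 change of -0.09 (95% interval -0.38 to 0.20), or 0.064 with library totals. miR-367-5p was the arm that was higher, at 52.4, 19.1 and 49.5 CPM against 57.8, 70.7 and 59.8 CPM (log2 change 0.64, SE 0.58, edgeR adjusted p = 0.721).

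Read by seed, the 12 tested miRNAs that share the seed AAGUGCU did not lie on 1 side. The 5 miR-302 members, miR-302e included, had a median log2 change of -0.67 and summed to 380682, 253387 and 266630 CPM in mutant against 207284, 228454 and 191329 CPM in knockdown libraries. miR-372-3p and miR-373-3p summed to 188, 151 and 139 CPM against 711, 441 and 564 CPM. The 5 members from the chromosome 19 miRNA cluster (C19MC), miR-520a to miR-520e, had a median of -0.36. By level the seed was carried almost wholly by miR-302. miR-302e, a short entry on chromosome 11 with nearly the same first bases as the other miR-302 members, may share their reads and is uncertain.

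The hematopoietic miRNAs that the study followed were slightly higher with the knockdown, by about the spread between libraries (SD of 0.24 for the list median). Of the 5, 4 were tested, and all 4 had positive log2 changes, from 0.17 to 0.32 with a median of 0.25. None passed the test (edgeR adjusted p from 0.575 to 0.893), and the libraries overlapped in all 4. The median was 0.097 without knockdown library 1 and 0.39 without knockdown library 2. The study picked these miRNAs as reduced in USB1 mutant cells, so their direction in the mutant is not independent evidence.

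miR-125a-5p, which acts in hematopoietic stem cells, was at 199, 162 and 207 CPM in mutant and 293, 196 and 206 CPM in knockdown libraries. Knockdown library 1 alone was above the mutant range, and the log2 change was 0.29 (95% interval -0.11 to 0.69, edgeR adjusted p = 0.575). The WT libraries were at 257, 234 and 213 CPM. miR-125b-5p, of the same seed, was at 16.4, 15.1 and 15.7 CPM against 19.3, 15.5 and 19.5 CPM, a log2 change of 0.20 (95% interval -0.26 to 0.66, adjusted p = 0.783). WT libraries held 44.7, 28.7 and 26.8 CPM, all above both mutant groups. miR-199a-3p, a mesenchymal miRNA whose sequence miR-199b-3p shares, was at 15.3, 12.2 and 13.9 CPM against 17.3, 12.5 and 17.0 CPM, with 40.1, 21.6 and 25.5 CPM in WT. Its log2 change with the knockdown was 0.17 (95% interval -0.33 to 0.68, adjusted p = 0.828). miR-142-5p, a marker of blood cells, was near the floor at 0.375 to 1.41 CPM against 0.582 to 1.69 CPM, and its log2 change of 0.32 was -0.06 without knockdown library 1. miR-223-3p, a granulocyte miRNA, had 4, 9 and 3 counts in mutant and 7, 9 and 9 in knockdown libraries and was not tested.

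Relative to WT, the 4 tested miRNAs had a median log2 change of -0.89 in knockdown libraries. WT library 1 was the highest WT library for all 4, which adds to that median. miR-142-5p had 83 counts there against 18 and 17 in the other WT libraries, and 25, 11 and 16 with the knockdown. The median without WT library 1 was not analysed here. miR-125a-5p was near the WT level, with a log2 change of -0.02 (SE 0.19, 95% interval -0.42 to 0.38, edgeR adjusted p = 0.971) and of -0.31 in the USB1 mutant (adjusted p = 0.329). The same comparison for miR-125b-5p gave -0.88 with the knockdown (edgeR adjusted p = 0.0802, DESeq2 adjusted p = 0.00733) and -1.08 in the USB1 mutant (edgeR adjusted p = 0.00726). For miR-199a-3p the values were -0.90 (edgeR adjusted p = 0.0996, DESeq2 adjusted p = 0.0161) and -1.08 (edgeR adjusted p = 0.0111). DESeq2 thus called both lower than WT with the knockdown, and edgeR called neither. These comparisons share the WT libraries, and a p that passes in one and misses in the other does not show that the groups differ. The test of that difference is the knockdown against the mutant, above.

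**Figure D3:**
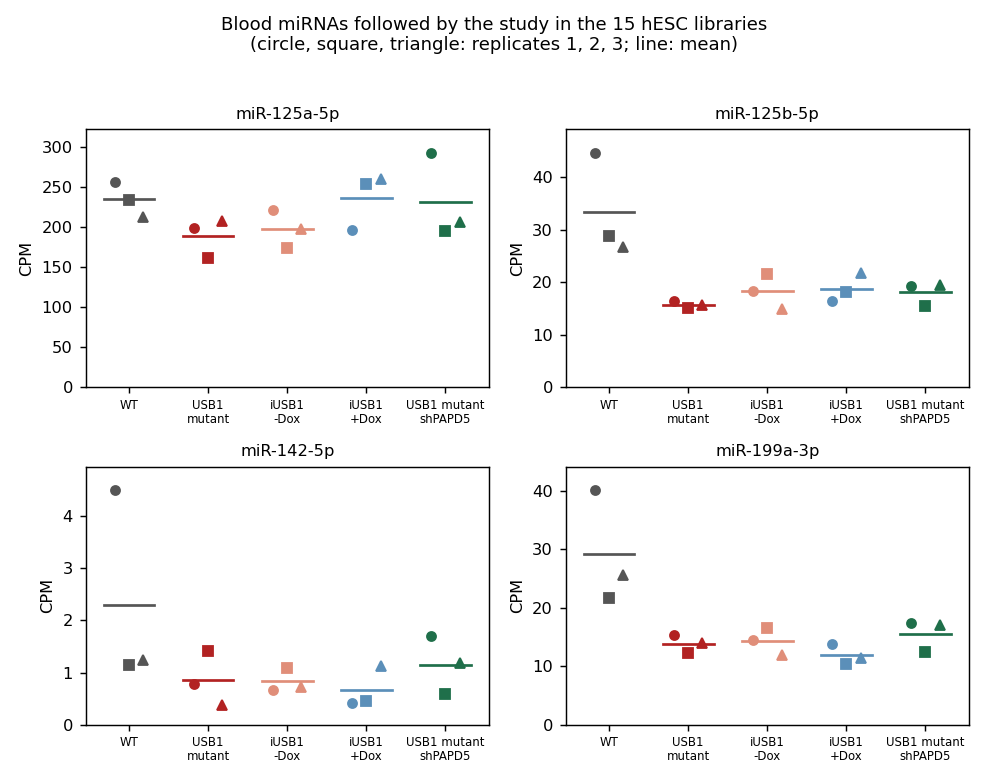
CPM of miR-199a-3p, miR-142-5p, miR-125b-5p and miR-125a-5p in each library of the 5 hESC groups, 1 point per library with group means. Knockdown and USB1 mutant points overlap in all 4 panels, and for miR-125b-5p and miR-199a-3p the WT points lie above both.

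The opposite strands of these hairpins gave positive log2 changes in 5 of 5, with a median of 0.42 and none called. That median was 0.23 without knockdown library 1 and 0.28 without mutant library 3. The largest was miR-125b-2-3p, at 0.459, 1.72 and 1.05 CPM against 2.37, 1.32 and 1.61 CPM (0.64, SE 0.45, edgeR adjusted p = 0.615, and 0.34 to 1.24 with a library left out). Of 16 tested blood-lineage miRNAs, 14 had positive log2 changes with a median of 0.25. The median was 0.05 without knockdown library 1, 0.40 without knockdown library 2 and 0.15 without mutant library 3. Only 2 of the 16 lay wholly above the mutant, against 8.52% of all tested miRNAs, which does not set the list apart. The first was miR-155-5p, an activator of immune cells, at 155, 137 and 149.9 CPM against 177, 211 and 189 CPM (log2 change 0.39, edgeR adjusted p = 0.357). The other was miR-181d-5p, of the lymphoid miR-181 family, at 19.5, 15.5 and 14.8 CPM against 23.5, 27.9 and 23.1 CPM (log2 change 0.58, edgeR adjusted p = 0.300).

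The let-7 family, whose members promote differentiation and are kept low in stem cells, was higher in 9 of 9 members. The median log2 change was 0.37 and none was called. In 4 members the groups did not overlap, against 8.52% of all tested miRNAs wholly above the mutant. let-7a-5p, the most abundant, was at 342, 708 and 816 CPM in mutant and 1071, 955 and 1383 CPM in knockdown libraries. Its groups did not overlap (log2 change 0.87, SE 0.34, 95% interval 0.15 to 1.59, edgeR adjusted p = 0.344), and the change was 0.60 without mutant library 1. let-7f-5p had a log2 change of 0.49, let-7g-5p of 0.51 and let-7b-5p of 0.74, with edgeR adjusted p of 0.530 to 0.554. The median of the family was 0.26 without mutant library 1 and 0.25 without knockdown library 3, and against -Dox it was 0.12. The related family of miR-125, miR-100, miR-99 and miR-10, which includes miR-125a and miR-125b, was also higher in 7 of 7 members, with a median of 0.33 (0.57 without mutant library 3, 0.51 with library totals) and 1 member without overlap. Its most abundant member, miR-99b-5p, was at 575, 910.1 and 1107 CPM against 1034, 968 and 1248 CPM, which overlapped, with a log2 change of 0.33 and of 0.12 without mutant library 1.

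The miR-200 family, which holds cells in an epithelial state by restraining the ZEB repressors, was higher in 4 of 5 members with a median of 0.31. In 3 members the groups did not overlap, against 8.52% of all tested miRNAs wholly above the mutant. miR-200b-3p was at 1003, 1428 and 1907 CPM in mutant and 2054, 2390.1 and 2728 CPM in knockdown libraries. All knockdown libraries were above all mutant libraries, with a log2 change of 0.73 (SE 0.20, 95% interval 0.31 to 1.14, edgeR adjusted p = 0.216). miR-429, from the same transcript and with the same seed, was at 132, 111 and 121 CPM against 184, 156 and 170.2 CPM, with a log2 change of 0.48 (SE 0.14, edgeR adjusted p = 0.234, DESeq2 adjusted p = 0.0400). miR-200c-3p was at 2606 ± 105 CPM against 3238 ± 204 CPM (0.31, adjusted p = 0.345). miR-200a-3p had a log2 change of 0.14, and miR-141-3p of -0.54 (-0.14 without mutant library 1). Against iUSB1 -Dox, whose miR-200b-3p libraries were at 2446, 2488 and 2045 CPM, the family's median was 0.04 and no member lay apart.

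Among single miRNAs whose mean log2 CPM reached 3, the 10 with the smallest p in each direction are given by rule. On the higher side miR-1301-3p, in an intron of DNMT3A, had the smallest unadjusted p. It was at 33.6, 47.1 and 42.7 CPM in mutant and 60.9, 69.1 and 64.8 CPM in knockdown libraries, without overlap (log2 change 0.66, SE 0.16, 95% interval 0.32 to 0.99, edgeR adjusted p = 0.206, DESeq2 adjusted p = 0.00876). The -Dox libraries were at 61.2, 60.9 and 64.7 CPM, within 0.06 of the knockdown on the log2 scale. miR-203a-3p, an epidermal miRNA, was at 13.0, 16.4 and 14.02 CPM against 26.9, 26.9 and 26.1 CPM, with a log2 change of 0.88 (SE 0.21, edgeR adjusted p = 0.206, DESeq2 adjusted p = 0.0396). Its -Dox libraries, at 17.1, 20.6 and 14.9 CPM, were also below every knockdown library. The neural miRNA miR-9-5p was at 640.0, 743 and 837 CPM against 1542, 1306 and 1237 CPM (0.88, SE 0.24, edgeR adjusted p = 0.216), and again the -Dox libraries, at 938, 624 and 946 CPM, lay below. It was called when WT library 1 was left out (edgeR adjusted p = 0.0257).

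miR-30a-5p, of the family that the hairpin's cassette is named after, was at 261, 252 and 299 CPM against 411, 359 and 386 CPM (log2 change 0.51, edgeR adjusted p = 0.318). The 7 tested arms of the miR-30 family had a median of 0.09, with miR-30d-5p at 0.34. Muscle miR-1-3p was at 109.9, 194 and 346 CPM against 392, 336 and 565 CPM, which overlapped (0.99, SE 0.34, edgeR adjusted p = 0.305), and its log2 change was 0.69 without mutant library 1. miR-542-3p was at 9.49 ± 2.04 CPM against 14.9 ± 1.499 CPM (0.64, edgeR adjusted p = 0.300). miR-1912-5p, from an intron of HTR2C, was at 5.61 ± 1.97 CPM against 11.2 ± 3.21 CPM (1.0, edgeR adjusted p = 0.315). The rest of the 10 are miR-200b-3p, miR-429 and miR-181d-5p, given above.

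**Figure D4:**
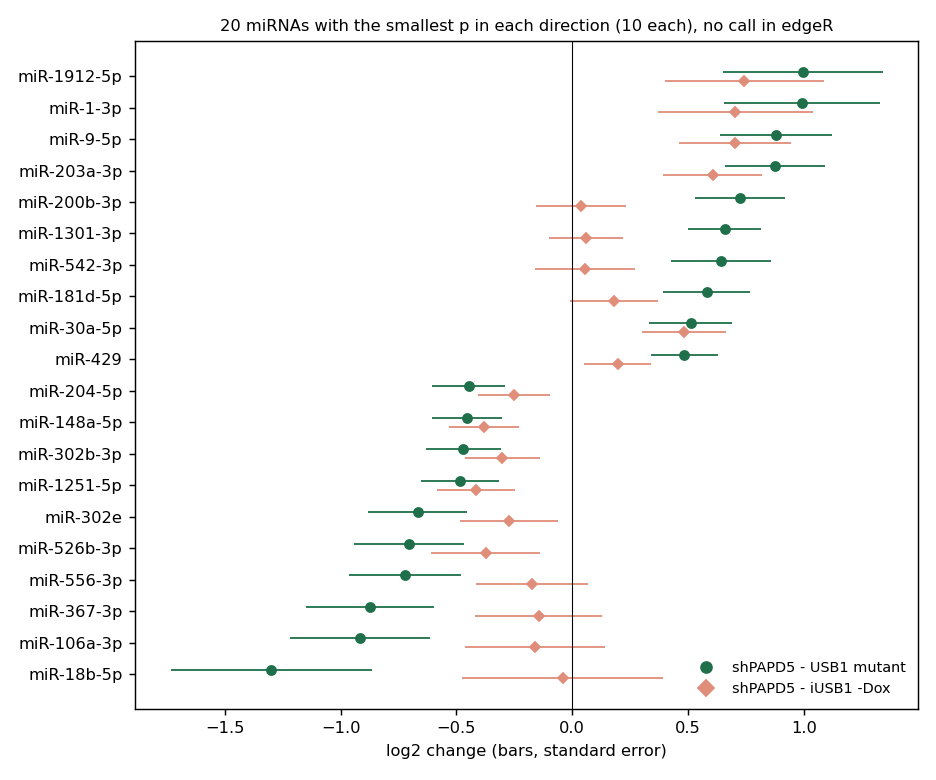
Log2 change with its SE for the 20 miRNAs named by the smallest p, 10 in each direction, in knockdown over USB1 mutant and in knockdown over iUSB1 -Dox libraries. The 20 were chosen on the comparison with the mutant, where they range from -1.30 to 1.0, and against -Dox they range from -0.41 (miR-1251-5p) to 0.74 (miR-1912-5p).

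On the lower side, several values rested on mutant library 1. miR-18b-5p, of a miR-17/92 paralog cluster that drives proliferation, was at 35.8, 10.1 and 7.50 CPM against 5.96, 9.78 and 5.80 CPM, and its log2 change of -1.30 (SE 0.43, edgeR adjusted p = 0.300) was -0.27 without that library. miR-106a-3p, from the same cluster, was at 49.9, 19.6 and 20.8 CPM against 17.5, 15.2 and 15.1 CPM, with -0.92 and -0.32. miR-302e gave -0.67 and -0.26, miR-526b-3p -0.70 and -0.46, and miR-556-3p -0.72 and -0.41. Others held without it. miR-148a-5p was at 224, 237 and 234 CPM in mutant and 152, 156 and 199.8 CPM in knockdown libraries (log2 change -0.45, SE 0.15, edgeR adjusted p = 0.300, and -0.45 without mutant library 1). miR-204-5p, in an intron of TRPM3 and known from the eye, was at 256, 254 and 254 CPM against 159, 208 and 193 CPM (-0.45, edgeR adjusted p = 0.318). miR-1251-5p, in an intron of the neural long non-coding RNA RMST, was at 60.4 ± 8.01 CPM against 43.2 ± 6.37 CPM (-0.48, edgeR adjusted p = 0.318). In these 3 no knockdown library reached the mutant range, and all 3 were also below every -Dox library.

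DESeq2 called 8 miRNAs, of which miR-1301-3p, miR-203a-3p and miR-429 are given above. Both arms of the tumour-suppressive miR-193a hairpin were among them. miR-193a-3p was at 0.917, 0.933 and 2.02 CPM in mutant and 3.52, 4.97 and 4.11 CPM in knockdown libraries (edgeR log2 change 1.74, SE 0.45, adjusted p = 0.206, DESeq2 adjusted p = 0.0396). miR-193a-5p was at 1.64, 2.71 and 3.07 CPM against 4.88, 5.23 and 5.50 CPM (1.07, edgeR adjusted p = 0.206, DESeq2 adjusted p = 0.0396). Neither arm overlapped, and both were above every -Dox library. The other calls were on low levels. miR-1911-3p, in an intron of HTR2C, was at 0.524 to 0.975 CPM against 1.53 to 3.66 CPM, miR-548at-3p at 0.0602 to 0.150 CPM against 0.203 to 1.03 CPM, and miR-5011-3p, the 1 that was lower, at 2.10 to 5.10 CPM against 0.813 to 1.005 CPM.

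The edgeR fit of all hESC libraries called no member of the other groups either, and several of their medians depended on 1 library. The miR-17/92 cluster and its paralogs were lower in 12 of 13 members with a median of -0.34, which was -0.12 without mutant library 1. miR-363-3p was at 19332 ± 3181 CPM against 14915 ± 2631 CPM (-0.37, edgeR adjusted p = 0.542), and miR-106b-5p had -0.55, or -0.17 without mutant library 1. Of 58 tested arms of C19MC, a primate cluster at chr19:53666679-53762430 that is active in placenta and hESCs, 47 were lower and 7 lay wholly below the mutant, against 7.21% of all tested miRNAs, with a median of -0.22 that was -0.0017 without mutant library 1. Its most abundant arm, miR-516b-5p, was at 935 ± 192 CPM against 1173 ± 111 CPM (0.33, edgeR adjusted p = 0.484). The imprinted 14q32 cluster was sparse, with 14 of 29 arms tested. There 13 were lower with a median of -0.48, which was -0.49 without mutant library 1, -0.26 without mutant library 2 and -0.81 under a stricter filter of 10 CPM in 3 libraries. The cluster was led in level by miR-381-3p at 10.6, 11.9 and 6.90 CPM against 5.49, 6.03 and 5.28 CPM (log2 change -0.81, edgeR adjusted p = 0.357), and miR-409-3p had a log2 change of -0.69, both without overlap.

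miRNAs tied to p53 were divided. Of 7 that target p53, 4 were higher and 3 lower with a median of 0.02. Of 8 induced by p53, 3 were higher and 5 lower with a median of -0.13 (0.027 with library totals), and miR-34a-5p, the best known of them, was at 257, 135 and 153 CPM against 137, 119.8 and 127 CPM (log2 change -0.51, and -0.15 without mutant library 1). The oncogenic miR-21-5p was at 23534 ± 2519.5 CPM against 22982 ± 834 CPM, a log2 change of -0.03 with a 95% interval of -0.36 to 0.29, or 0.14 with library totals. Among hairpins that enter the pathway without Drosha, 8 mirtrons had a median of 0.07 and 5 others of 0.05, with miR-320a-3p at 0.29 and without overlap.

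Markers of other cell types were checked because they could move with a group. The summed level of 9 tested fibroblast markers ranged from 22202 to 26806 CPM in mutant and from 22617 to 24149 CPM in knockdown libraries, nearly all of it miR-21-5p, and their median log2 change was 0.17 (0.10 to 0.35 with a library left out). miR-143-3p was the one with the most counts after it, at 209, 211 and 192 CPM against 321, 221 and 364 CPM (0.57, edgeR adjusted p = 0.692). The 11 markers of neural, muscle, endodermal and epidermal cells summed to 1528 to 2171 CPM in mutant and 2456 to 2904 CPM in knockdown libraries, so that the groups did not overlap. Most of this difference was miR-9-5p and miR-1-3p, whose levels are given above, so the sum does not speak for every cell type. Of the 11 markers 8 were higher and 3 lower, with a median of 0.59 (0.91 without knockdown library 2). Besides miR-9-5p and miR-203a-3p, miR-375-3p of endocrine cells lay apart, at 2.62, 2.44 and 3.07 CPM against 7.46, 4.49 and 3.96 CPM (0.97, edgeR adjusted p = 0.216), whereas miR-194-5p lay apart on the lower side (-0.54). miR-205-5p, a marker of squamous epithelium, was at 313 CPM in knockdown library 1 and at 112 and 107 CPM in the others, and its log2 change of 0.24 was -0.45 without that library. In bulk RNA, more cells of a type and more RNA per cell cannot be told apart. The part of differentiated cells in the differences above was not tested.

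**Figure D5:**
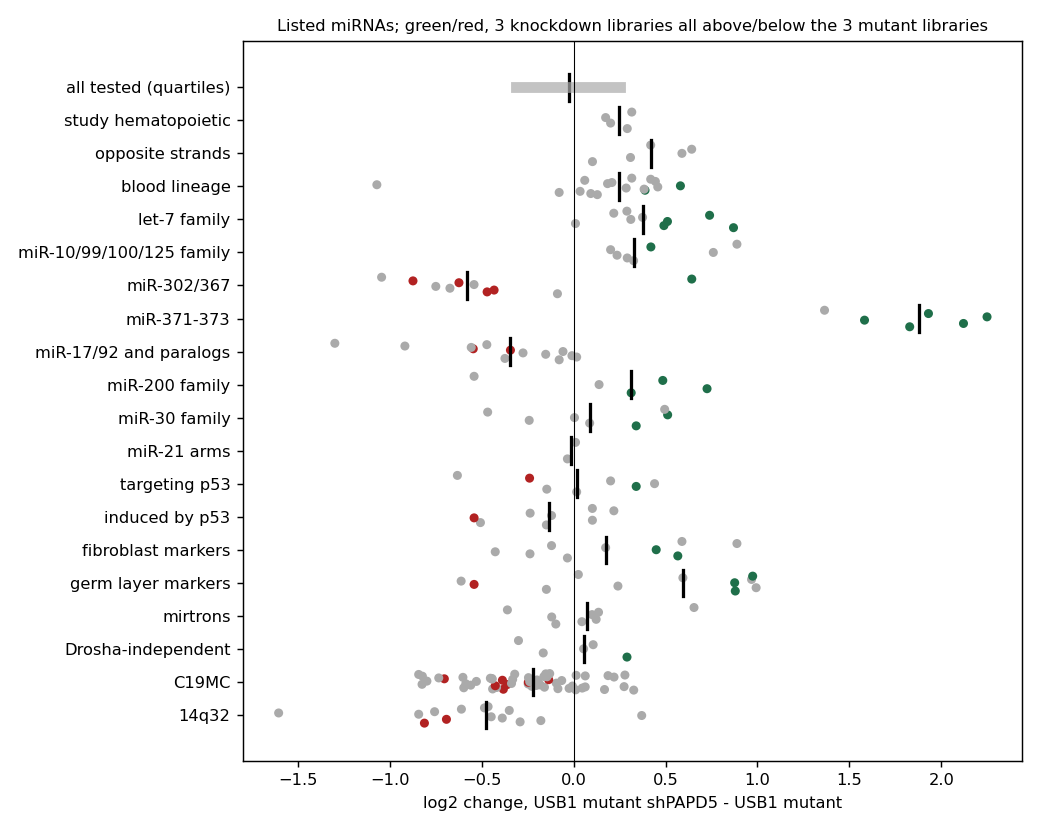
Log2 change in knockdown over USB1 mutant libraries for every tested member of the 19 miRNA lists, 1 point each, with the list median as a bar and coloured points where the 3 libraries of the groups do not overlap. The miR-371 to miR-373 list has the highest median (1.88) and the miR-302 and miR-367 list the lowest (-0.58).

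The uninduced iUSB1 cells offer a USB1 mutant group that shares no library with the USB1 mutant group above and also carries an insertion at AAVS1. The knockdown libraries are the same in both comparisons, so these are not independent. Against the -Dox libraries edgeR called 0 of 998, with 38 miRNAs higher (3.81%) and 26 lower (2.61%) at an unadjusted p under 0.05. DESeq2 called 1 (0.101%). That was miR-486-3p, an erythroid miRNA, at 44.6, 31.0 and 42.9 CPM in knockdown and 22.3, 21.2 and 21.8 CPM in -Dox libraries (edgeR log2 change 0.86, SE 0.20, adjusted p = 0.466, DESeq2 adjusted p = 0.0364). The groups did not overlap. Against the USB1 mutant its log2 change was 0.46. The knockdown libraries lay wholly above -Dox for 73 miRNAs (7.31%) and wholly below for 64 (6.41%).

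A fit of the knockdown and -Dox libraries alone called 5 miRNAs, all higher, which were miR-372-3p, miR-373-3p, miR-371a-3p and both arms of miR-675. miR-675, made from the imprinted H19 RNA, is named after its values were seen. miR-675-5p had 45, 87 and 67 counts in knockdown and 7, 5 and 10 in -Dox libraries (log2 change 3.36, SE 0.33, edgeR adjusted p = 0.000425), but 79, 122 and 29 counts in the USB1 mutant. The -Dox group was therefore low in this miRNA, and the knockdown did not stand apart from the mutant. Counts of miR-675-5p also varied widely within other groups, at 2, 35 and 33 in WT and 99, 102 and 6 in +Dox libraries. Those libraries were not in this fit, so its adjusted p does not reflect that spread.

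Against WT, edgeR also called 0 of 998 in knockdown libraries, with a smallest adjusted p of 0.0510, and 57 miRNAs higher (5.71%) and 73 lower (7.31%) where the unadjusted p was under 0.05. DESeq2 called 3 higher (0.497%) and 23 lower (3.81%) of 604. The USB1 mutant gave 29 higher (2.91%) and 45 lower (4.51%) calls against the same WT libraries, so the counts share a control and are set side by side only. The 45 miRNAs lower in the mutant than in WT can be read in the knockdown against -Dox, which uses neither of those groups. There 37 of the 45 were higher with the knockdown, with a median log2 change of 0.38, 14 were wholly above and 0 wholly below. Over all 998 the median was 0.00, 503 were higher, 73 (7.31%) were wholly above and 64 (6.41%) wholly below. The 45 include all 6 tested miR-371 to miR-373 arms, of which 4 were wholly above -Dox. In that cluster WT library 1 stood far above the other WT libraries. Of the 29 that were higher in the mutant, 7 were higher and 22 lower, with a median of -0.08. Among these 29, 0 were wholly above -Dox and 5 wholly below. These counts are a description with no test.

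The last base and the arm of each miRNA were tabulated without a test. RefSeq held a mature sequence for 889 of the 998 tested miRNAs. By the last base, median log2 changes were -0.02 for the 166 that end in A, -0.04 for 173 in C, -0.05 for 267 in G and 0.01 for 283 in U. The knockdown libraries lay wholly above the mutant for 20 of those that end in A, 11 in C, 16 in G and 26 in U, which is 73 of the 889 (8.21%). They lay wholly below it for 10, 10, 19 and 23 in the same order, which is 62 of the 889 (6.97%). For the 233 hairpins with both arms tested, the median was -0.05 for the more abundant arm and -0.12 for the less abundant one. The deposited counts hold no reads with their 3' ends, so the tails themselves were not analysed here.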

How the data were processed

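Small RNA libraries of total RNA (Lexogen small RNA kit, bead size selection, NovaSeq) were made by the authors, who trimmed reads with cutadapt 2.5, aligned them to human miRBase entries with Bowtie2 2.2.9 allowing no seed mismatch, and counted alignments with SAMtools 1.3.1. What they deposited is a table of raw counts for each group, not normalised, with mature miRNAs as rows and libraries as columns, and 0 columns were left out. A read with added 3' bases could fail to align or be counted with its miRNA, and tail length is lost. Each table lists only miRNAs with a count in its first column, so only miRNAs listed in all 5 hESC tables were fitted, after removal of adaptor entries (0.00478 to 0.0179% of counts).

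Samples were grouped by their titles. The 15 hESC libraries were fitted with group terms by edgeR 4.0.16 quasi-likelihood (R 4.3.3, limma 3.58.1, TMM, robust). Low counts were removed by filterByExpr with minimum count 10 and total 15. Adjustment was by Benjamini-Hochberg over 998 miRNAs in each of 4 comparisons, with calls at 0.05. The fit was also run on simulated counts in which no library was made to stand apart, so that run does not cover outlying libraries such as WT library 1. Intervals are 95% intervals from the fit. The tested miRNAs held over 99.9% of each library. Labels do not say whether replicates were separate cultures, so a p-value reflects only how these libraries varied, which may be technical. miRNAs and the 19 lists were chosen with earlier results of these data known. Named miRNAs are those the study followed and their opposite strands, in each direction the 10 called or else smallest-p miRNAs whose mean log2 CPM reached 3, and up to 4 abundant members of each list. Others were named after their values were seen, for a DESeq2 call, a lack of overlap or membership of the miR-371 to miR-373 and miR-302 and miR-367 clusters. Alternatives were DESeq2 1.42.0, other scaling, other filters, other libraries in the fit, a replicate block and leaving out each library. Sequences and positions are from RefSeq and GENCODE on GRCh38.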

Additional observations from a re-analysis of the deposited data

How the results depend on the processing

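Of 1422 values of 66 named miRNAs under an alternative, 1346 kept their direction and stayed uncalled, 62 kept it and were called, and 14 had the opposite sign. For knockdown against USB1 mutant, where edgeR called 0, calls numbered 8 with DESeq2, 5 with library totals alone, 4 with only the 2 groups fitted, 8 without WT library 1 in the shared fit and, as alternatives added after the data were seen, 7 with the 4 mutant groups alone and 11 with DESeq2 on the 2 groups. RLE factors, no filter and a CPM of at least 10 in 3 libraries gave 0. Leaving out each of the 6 knockdown and mutant libraries gave 0 to 0 calls in the shared fit and 0 to 8 in the 2-group fit. Against -Dox the counts were 1 with DESeq2, 5 with the 2 groups and 4 without WT library 1. Against WT they were 26 with DESeq2, 2 with the CPM filter and 0 to 9 with a library left out, the 9 without WT library 2. The 74 calls of USB1 mutant against WT became 108 with DESeq2 and 0 in a 2-group fit. With a library left out they ranged from 38, without mutant library 1, to 87. Causes of these shifts were not tested, and that includes the smaller number of libraries that a 2-group fit has to estimate the spread.

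With the replicate number as a block, 0 miRNAs were called between knockdown and mutant (123 with an unadjusted p under 0.05, smallest adjusted p 0.147), 0 against -Dox, 0 against WT and 76 between mutant and WT. Whether the numbers pair these libraries was not settled. Correlations of deviations were 0.14, -0.07 and 0.26 for replicates 1, 2 and 3. Knockdown libraries 1 and 3 correlated best with the mutant library of their own number, and knockdown library 2 with mutant library 1. The block is therefore given as these counts only.

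Library totals in place of TMM moved the median of all 998 changes from -0.03 (474 higher) to 0.13 (610 higher) and gave miR-302a-5p 0.064 and miR-21-5p 0.14, the sign opposite to TMM. With RLE the median was -0.02. With a library left out, 5 named miRNAs changed sign. miR-302a-5p ranged from -0.18 to 0.036 in the shared fit (-0.19 to 0.020 in the 2-group fit), miR-21-5p from -0.068 to 0.082 (-0.076 to 0.064, with 0.0073 without knockdown library 3), miR-142-5p from -0.058 to 0.96 (-0.071 to 0.94) and miR-205-5p from -0.45 to 0.64 (-0.47 to 0.66). miR-200a-3p ranged from 0.016 to 0.41 (-0.0052 to 0.42). Depth limits what can be said of miRNAs near 1 CPM, such as miR-142-5p, whose 95% interval ran from -0.96 to 1.59.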
